A study of Equus caballus with 20 samples.

Results

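WNT signalling genes were followed in the oviduct epithelium of mares 4 days after ovulation: the WNT ligands, their frizzled and LRP receptors, the secreted proteins that block or boost them, and the transcription factors at the end of the pathway. The genes were taken by symbol from the deposited table, as every row named WNT, FZD, SFRP, DKK, RSPO or LGR with a number, every TCF7 row, and 12 further rows named in full (FRZB, WIF1, LRP5, LRP6, AXIN1, AXIN2, LEF1, ROR1, ROR2, RNF43, ZNRF3 and PORCN). This gave 54 of the 26740 features. Members of these families that the table does not list under such a symbol, LGR5 and FZD7 among them, were not analysed here.

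The 20 libraries were made from epithelial cells of Warmblood mares, taken at the junction of ampulla and isthmus, and fall into 4 groups of 5 biological replicates. In pregnant mares, epithelium came from the ipsilateral oviduct, where ovulation took place (PI1 to PI5), and from the contralateral one (PC1 to PC5). Cyclic mares, per the labels not pregnant, gave the same pair of sites (CI1 to CI5 and CC1 to CC5). No further treatment or genotype is labelled. In bulk tissue, fewer cells of a type and less RNA per cell cannot be told apart.

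WNT proteins are secreted lipid-modified ligands. In the canonical branch a WNT binds a frizzled receptor together with LRP5 or LRP6, which stops the AXIN-containing complex from marking beta-catenin for destruction, and beta-catenin then acts in the nucleus with factors of the TCF/LEF family. Other WNTs act through frizzled and ROR receptors without beta-catenin, in cell polarity among other processes. In the female tract of the mouse, WNT7A from the epithelium is known for its part in forming the oviduct and uterus, and the pathway is known for maintaining epithelial progenitors.

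Levels are normalized counts, the authors' read counts scaled by 1 factor per library. Library totals were 2795168 to 10126484 reads, so that 3 reads, the limit that a count of 0 allows, equal 1.75 to 7.03 normalized counts depending on the library. Transcript lengths were not at hand, so levels are compared between samples and never between genes. Marker genes of multiciliated cells had reads in every library (9 of 10 listed genes found). Their summed level was 51600 to 67900 normalized counts in PI and 52200 to 66100 in PC. It was 40100 to 55600 in CI and 39000 to 61200 in CC, with DNAH5 and HYDIN as the largest parts. Stromal fibroblast markers were also present in every library, with sums of 1650 to 7330 in PI, 2410 to 5500 in PC, 3260 to 5440 in CI and 2780 to 8210 in CC (10 of 10 genes found, none without reads), and so were smooth muscle markers (7 of 8 found, sums of 639 to 2210 over all libraries). In PI1, PI4 and CI3 the same feature, which has no symbol, took 14.4%, 27.8% and 15.4% of the reads, and members were also tested without these libraries. Stromal markers were lower in pregnant mares in 9 of 10 genes on each side and for the average, with median log2 differences of −0.48 ipsilaterally, −0.42 contralaterally and −0.48 for the average, and LUM and OGN had an unadjusted p under 0.05 ipsilaterally and for the average. Multiciliated markers were higher in pregnant mares in 9 of 9 genes tested (median log2 differences 0.24 ipsilaterally and 0.30 contralaterally, 0 at an unadjusted p under 0.05), and the part of both lists in the differences below was not tested beyond the covariate fits given.

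Reads were found for 49 of the 54 genes, and 37 passed the filter on low values, above 1 CPM (a count scaled to the library total) in at least 5 libraries. The ligands WNT1, WNT3A and WNT9B and the R-spondins RSPO2 and RSPO4 had 0 reads in all 20 libraries. Another 12 genes had reads but stayed below the filter: WNT2, WNT3, WNT6, WNT8B and WNT10B, the antagonists SFRP2, SFRP5, FRZB, DKK1, DKK2 and DKK4, and RSPO3. Among these the highest single value was 16.1 normalized counts, for DKK2 in CC5, with 14 reads, against 0 to 5 reads in the other libraries. All 7 frizzled genes, all 4 co-receptor genes and all 4 TCF/LEF genes passed, against 10 of 18 ligands and 4 of 10 secreted antagonists. The filter needs only 5 libraries, so that WIF1 passed through 6, WNT8A through 8 and WNT4 through 9 libraries.

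**Figure D1:**
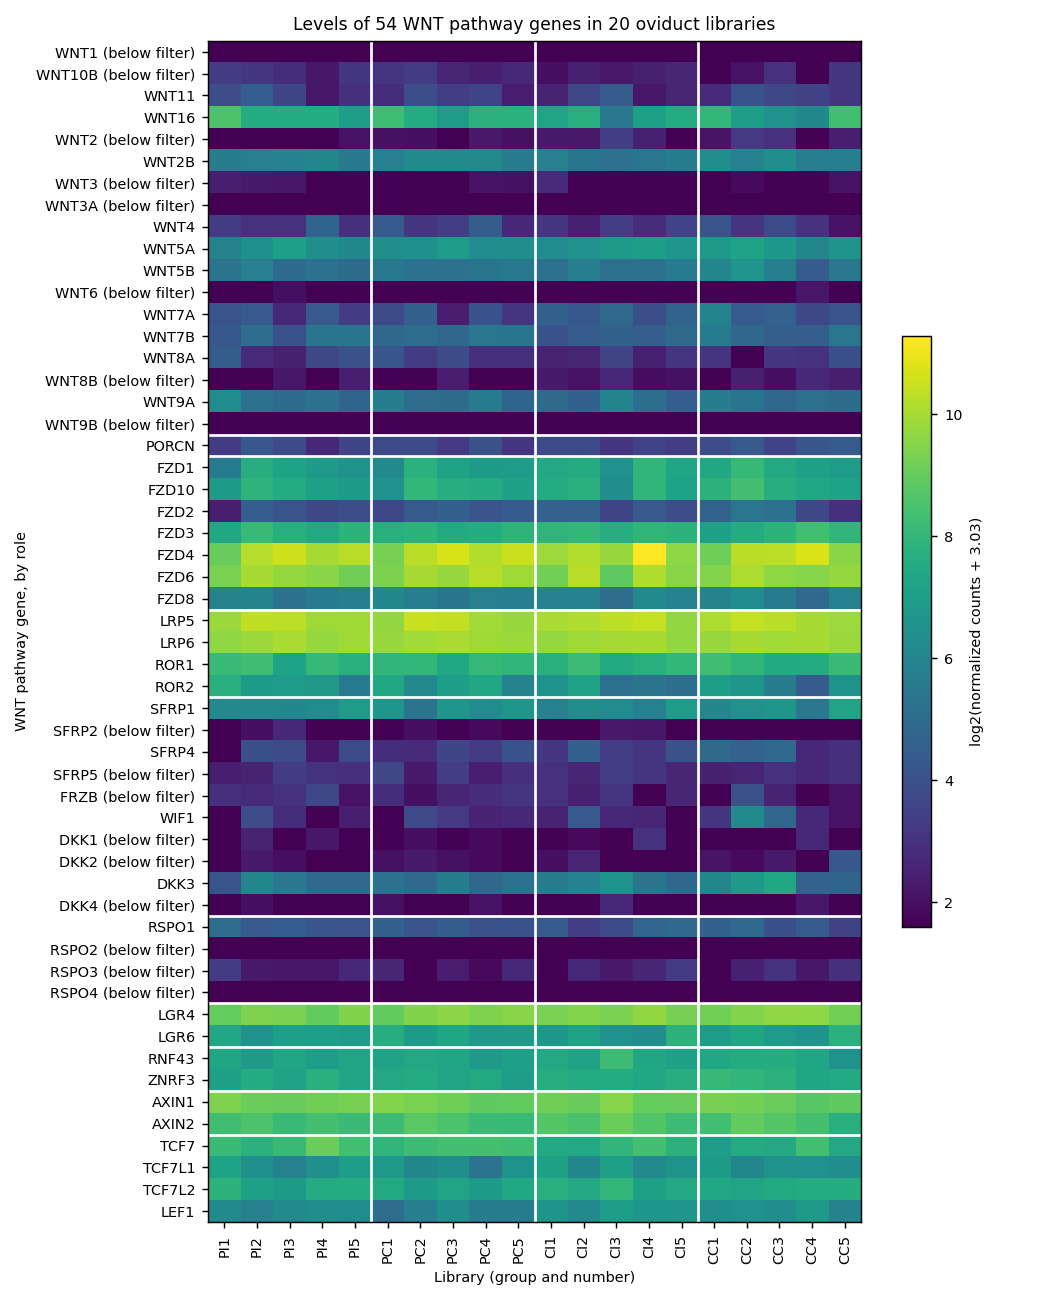
Levels of the 54 genes, as log2 of normalized counts plus 3.03, in the 20 libraries (columns, by group) with genes (rows) ordered by role: ligands, PORCN, frizzled receptors, co-receptors, secreted antagonists, R-spondins, LGR receptors, E3 ligases, AXIN genes and TCF/LEF factors. Rows should be read along the row only, since gene length also sets the level; the 5 genes with 0 reads are dark throughout, and LRP6 is nearly even, at 785 to 1060 normalized counts.

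The first question was how the WNT genes of the oviduct differ between pregnant and cyclic mares. At the end of the pathway, TCF7 was higher and LEF1 lower in pregnant mares on both sides, and among the ligands WNT7A was lower. No member passed the test in any comparison: limma called 0 of 37 members, and 0 of 14692 features (0%), at an adjusted p under 0.05 on the ipsilateral side, on the contralateral side and for the average of the 2 oviducts. On the recovered reads edgeR also called 0 features in these 3 comparisons, and DESeq2 called 0, 12 and 16, with 0 members among them. At an unadjusted p under 0.05 there were 0 members on the ipsilateral side, where 3.5% of all features were, and 4 contralaterally, TCF7, LEF1, WNT7A and ZNRF3, 10.8% of the 37, beside 4.55% of all features. For the average the count was 3 (TCF7, LEF1 and WNT7A, 8.11%), beside 4.42% of all features. The median log2 difference of the 37 members was −0.07 ipsilaterally, −0.06 contralaterally and −0.07 for the average, against −0.01, 0.01 and 0.00 over all features.

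Among the ligands, WNT7A had 14.1, 16.5, 3.39, 16.8 and 7.09 normalized counts in PI1 to PI5, with 10.8, 20.7, 2.08, 13.4 and 5.54 in PC1 to PC5, against 21.2, 16.1, 27.0, 12 and 22.5 in CI1 to CI5 and 59.3, 17.7, 22.1, 10 and 13.8 in CC1 to CC5. The groups overlapped on both sides, and PI3 and PC3, of the same number, were the lowest of all libraries. The log2 difference was −0.73 ± 0.44 ipsilaterally (adjusted p = 0.999, limma) and −0.98 ± 0.44 contralaterally (adjusted p = 1, limma; values after ± here are standard errors, SE). CC1 was far above the other CC libraries, and the contralateral difference was −0.63 without CC1. It was −0.68 without PC3, and −0.62 with a pseudocount of 2 CPM, so its size depends on the scale for low values. WNT7A had 2 to 45 reads per library.

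WNT16, which is known mainly from bone and haematopoietic development, pointed the other way. It averaged 215 ± 97.6 in PI and 143 ± 63.5 in CI, and 210 ± 66.3 in PC and 173 ± 112 in CC (SD, n = 5), with log2 differences of 0.65 ± 0.43 and 0.46 ± 0.43 that did not pass. WNT8A, near the floor in many libraries, averaged 9.65 ± 6.67 in PI and 8.45 ± 4.65 in PC, against 4.53 ± 2.75 in CI and 5.74 ± 4.51 in CC. WNT5A, the classic ligand of the branch without beta-catenin, differed little, at 85.2 ± 28.6 in PI and 89.5 ± 18.4 in PC, against 100 ± 20.1 in CI and 103 ± 28.2 in CC. Its 95% intervals for the log2 difference were −0.73 to 0.20 ipsilaterally and −0.64 to 0.29 contralaterally. WNT5B, WNT7B, WNT9A, WNT11 and WNT4 had log2 differences of −0.30 to 0.38 on both sides. PORCN, the acyltransferase that attaches the lipid to WNT proteins, averaged 9.28 ± 4.55 in PI and 8.61 ± 2.24 in CI, and 9.34 ± 3.25 in PC and 13.8 ± 3.57 in CC.

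Of the receptors, FZD1 had 44.5, 193, 146, 109 and 90.9 normalized counts in PI1 to PI5, against 170, 185, 86.4, 240 and 160 in CI1 to CI5. Contralaterally it had 71.1, 219, 146, 113 and 120 in PC1 to PC5, against 162, 270, 175, 137 and 120 in CC1 to CC5. The means were lower in pregnant mares on both sides, but the groups overlapped. The ipsilateral log2 difference was −0.60 ± 0.34 (adjusted p = 0.999, limma) and was −0.30 without PI1, the shallowest library. FZD2, FZD3, FZD4, FZD6, FZD8 and FZD10 had log2 differences of −0.49 to 0.19 over both sides. FZD4, a receptor that also serves the ligand Norrin, averaged 1100 ± 375 in PI and 1230 ± 385 in PC, against 1250 ± 706 in CI and 1110 ± 456 in CC, with 1 library, CI4, at 2490.

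LRP6, a co-receptor of the canonical branch, had the smallest spread within groups of the 37 members. It averaged 911 ± 102 in PI and 956 ± 68.6 in PC, against 932 ± 89.7 in CI and 961 ± 66.9 in CC, and its highest library was 1.35 times its lowest. Its 95% intervals for the pregnancy difference, −0.26 to 0.19 ipsilaterally and −0.24 to 0.22 contralaterally, were the narrowest of the 37 members. LRP5 averaged 1080 ± 190 and 1100 ± 272 in PI and PC, against 1140 ± 210 and 1130 ± 183 in CI and CC.

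ROR2, a receptor tyrosine kinase for WNT5A, was the most variable co-receptor, with a highest library 11.5 times its lowest. It had 211, 114, 119, 112 and 44.9 normalized counts in PI1 to PI5, with 168, 68.8, 124, 165 and 57.6 in PC1 to PC5, against 90.8, 142, 32.4, 36.8 and 31.1 in CI1 to CI5 and 129, 103, 48.0, 18.4 and 91.9 in CC1 to CC5. Most pregnant libraries lay above 100 and most cyclic ones below, with overlap. The averaged log2 difference was 0.81 ± 0.42 (adjusted p = 0.999, limma), and it was 0.30 with the leukocyte marker score as a covariate. Its relative ROR1 averaged 243 ± 69.5 in PI and 233 ± 39.7 in PC, against 231 ± 48.3 in CI and 243 ± 62.0 in CC.

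The secreted antagonists SFRP1, SFRP4, WIF1 and DKK3 passed the filter. DKK3, a Dickkopf family member whose role as a WNT blocker is unsettled, averaged 34.4 ± 18.7 in PI and 33.7 ± 9.03 in PC, against 51.3 ± 24.5 in CI and 76.0 ± 60.2 in CC. The log2 differences were −0.57 ± 0.47 and −0.75 ± 0.47, and did not pass. WIF1, which binds WNT ligands directly, averaged 3.65 ± 4.82 in PI and 4.57 ± 3.92 in PC, against 5.28 ± 6.54 in CI and 21.1 ± 29.4 in CC. The CC mean rested on CC2 (70.8) and CC3 (25.0), the other 3 CC libraries being at 1.15 to 5.27, and those 2 libraries also had the highest stromal marker sums of CC, 8210 and 7230. DKK3 was likewise highest in CC3 (162) and CC2 (110). Whether stroma accounts for these values was not tested. SFRP4, another ligand-binding decoy, averaged 7.2 ± 5.88 and 7.55 ± 3.92 in PI and PC, against 10.5 ± 6.52 and 16.9 ± 12 in CI and CC. The stromal markers were lower in pregnant mares beside DKK3, SFRP4 and WIF1. SFRP1 showed no such order, at 80.3 ± 22.8 and 83.9 ± 28.8 in PI and PC, against 76.2 ± 25.9 and 89.5 ± 41.6 in CI and CC.

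R-spondins strengthen WNT signalling by binding LGR receptors and removing the E3 ligases RNF43 and ZNRF3, which otherwise take frizzled receptors off the membrane. RSPO1, the single R-spondin past the filter, averaged 19.2 ± 6.64 in PI and 16.1 ± 3.83 in PC, against 17.2 ± 8.37 in CI and 17.4 ± 7.34 in CC. LGR4 averaged 600 ± 96.6 in PI and 675 ± 109 in PC, against 695 ± 87.0 in CI and 706 ± 107 in CC. LGR6 differed by −0.01 ± 0.27 contralaterally and by 0.08 ± 0.27 ipsilaterally on the log2 scale.

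ZNRF3, which is also a target gene of the pathway, had 169, 185, 151, 174 and 125 normalized counts in PC1 to PC5, against 267, 247, 223, 154 and 182 in CC1 to CC5. CC1, CC2 and CC3 lay above every PC library, and CC4 and CC5 within their range. The log2 difference was −0.39 ± 0.16 (adjusted p = 1, limma). Ipsilaterally ZNRF3 had 138, 192, 141, 210 and 150 in PI1 to PI5, against 197, 185, 184, 162 and 195 in CI1 to CI5, a difference of −0.17 ± 0.16. RNF43 averaged 138 ± 19.9 in PI and 142 ± 24.4 in PC, against 181 ± 66.0 in CI and 157 ± 40.4 in CC, and did not pass.

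AXIN1, the scaffold of the destruction complex, averaged 587 ± 65.9 in PI and 579 ± 97.0 in PC, against 571 ± 96.1 in CI and 537 ± 78.1 in CC. AXIN2, its relative and a widely used target gene of beta-catenin, averaged 322 ± 41.6 and 337 ± 70.2 in PI and PC, against 408 ± 93.7 and 354 ± 111 in CI and CC. The ipsilateral difference of AXIN2 was −0.32 ± 0.21, with a 95% interval of −0.75 to 0.11. CI3 raised this mean: it held the highest value of all 20 libraries for AXIN2 (553), RNF43 (297), AXIN1 (733), LEF1 (124) and TCF7L2 (254), and also for the feedback inhibitor NOTUM (115) and the cyclin CCND1 (270). CI3 was highest for 9.69% of all features, against 5 of 37 members (13.5%), and it is 1 of the 3 libraries with a dominant feature.

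TCF7 encodes a TCF factor that is also known from T cells, and it had 293, 217, 285, 549 and 321 normalized counts in PI1 to PI5, against 182, 174, 249, 330 and 225 in CI1 to CI5. On the other side it had 245, 298, 331, 338 and 312 in PC1 to PC5, against 126, 185, 169, 321 and 171 in CC1 to CC5. CI4 and CC4 stood apart from the other cyclic libraries, and without CC4 every PC library lay above every CC library. The log2 differences were 0.48 ± 0.24 ipsilaterally (adjusted p = 0.999, limma), 0.70 ± 0.24 contralaterally (adjusted p = 1, limma) and 0.59 ± 0.20 for the average (adjusted p = 0.999, limma). Contralaterally the value was 0.62 with DESeq2 and 0.63 with edgeR on the recovered reads.

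LEF1, its relative with the same kind of DNA-binding domain, ran in the opposite direction. Ipsilaterally its normalized counts were 72.6, 53.5, 69.6, 78.8 and 75.6 in the PI libraries, numbers 1 to 5, against 93.7, 69.7, 124, 99.2 and 96.4 in CI1 to CI5. Contralaterally it had 30.1, 50.0, 83.3, 49.7 and 48.8 in PC1 to PC5, against 83.0, 86.6, 78.7, 110 and 57.5 in CC1 to CC5. CI2 was within the PI range and the other CI libraries were above it, and PC3 was the single PC library above the lowest CC library. The log2 differences were −0.44 ± 0.22 (adjusted p = 0.999, limma), −0.68 ± 0.22 (adjusted p = 1, limma) and −0.56 ± 0.17 for the average (adjusted p = 0.999, limma). When the 2 oviducts of the same status and number were averaged, LEF1 was at 51.4 to 76.4 normalized counts in the 5 pregnant means, against 77.0 to 105 in the 5 cyclic ones. Those ranges do not overlap; 0.347% of all features were lower without overlap in this way. The contralateral difference was −0.40 with the multiciliated score as a covariate. TCF7L1 and TCF7L2, the other factors of the family, had log2 differences of −0.27 to −0.02 on both sides.

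**Figure D2:**
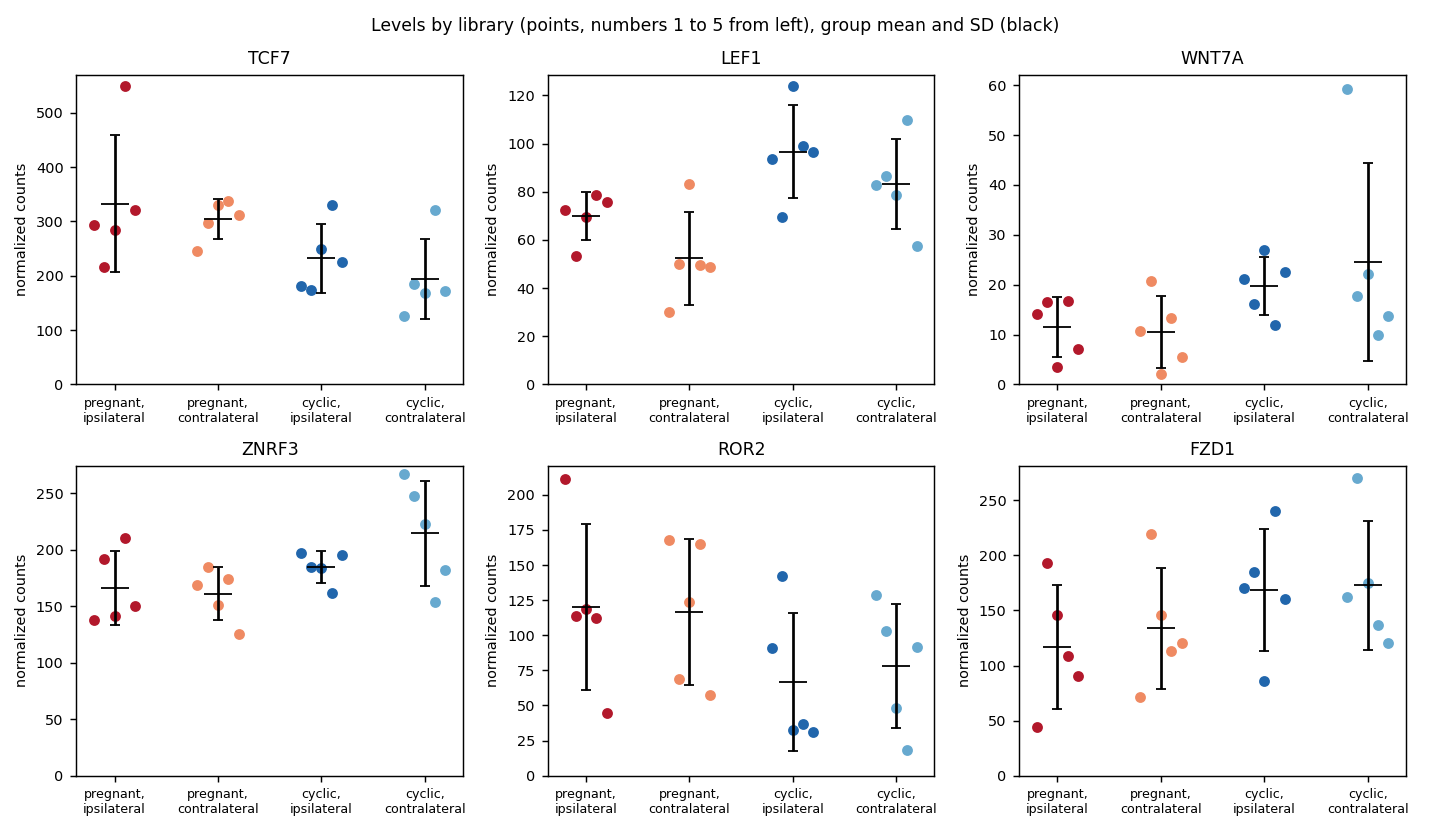
Normalized counts of 6 genes in each library (coloured points) with the group mean and SD (black), n = 5 per group. TCF7 averaged 333 in PI and 305 in PC, against 232 in CI and 195 in CC, while LEF1 averaged 70.0 and 52.4, against 96.7 and 83.2; single libraries such as PI4 for TCF7 (549) and CC1 for WNT7A (59.3) lie far from the rest of their group.

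TCF7 and LEF1 ran in opposite directions, and their ratio within a library was examined after their values were seen. All 666 pairs of members past the filter were searched for a ratio without overlap between the 10 pregnant and 10 cyclic libraries. TCF7 to LEF1 was the 1 pair found. How often pairs of other features separate in this way was not computed, so this count has no background share. The separation below is thus how the pair was chosen, and it carries no test. The ratio of TCF7 to LEF1 normalized counts does not depend on how libraries are scaled. It was 4.03, 4.05, 4.1, 6.96 and 4.25 in PI1 to PI5, with 8.14, 5.96, 3.98, 6.81 and 6.39 in PC1 to PC5, against 1.94, 2.50, 2.00, 3.33 and 2.33 in CI1 to CI5 and 1.52, 2.14, 2.15, 2.91 and 2.98 in CC1 to CC5. All 10 pregnant libraries lay above all 10 cyclic ones, the nearest values being 3.98 in PC3 and 3.33 in CI4. PI and PC libraries of the same number varied together, so the 10 pregnant libraries cannot be counted as 10 independent animals.

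**Figure D3:**
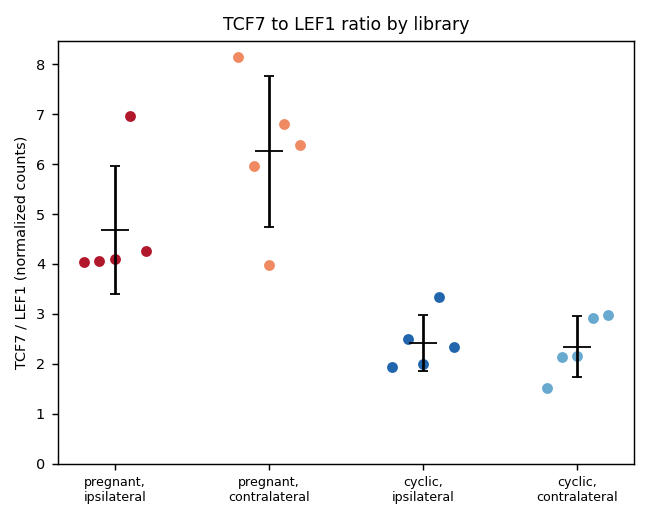
Ratio of TCF7 to LEF1 normalized counts in each library (points) with the group mean and SD (black), n = 5 per group. The 10 pregnant libraries sit at 3.98 to 8.14 and the 10 cyclic libraries at 1.52 to 3.33. The pair was picked out of 666 pairs of members because its ratio showed no overlap.

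Both factors are also made by T cells. The T cell marker CD3E was at 34.3 ± 12.2 in PI and 38.8 ± 30.4 in PC, against 23.1 ± 19.4 in CI and 17.3 ± 5.94 in CC, and the summed leukocyte markers (10 of 10 found) ran from 502 to 1340 in PI and from 704 to 2160 in PC, against 528 to 1490 in CI and 618 to 1080 in CC. PI4 and PC4, the libraries with the most TCF7 in PI (549) and PC (338), also had the highest leukocyte sums of their groups, 1340 and 2160. CI4 and CC4, the cyclic libraries with the most TCF7, had leukocyte sums of 563 and 635. CI1, the cyclic library with the highest sum (1490), had TCF7 at 182. The part of leukocytes in the TCF7 values was not tested beyond the covariate fit given below. Of the 9 leukocyte markers tested, 5 were higher in pregnant mares ipsilaterally (median log2 difference 0.25), 8 contralaterally (median 0.76) and 8 for the average (median 0.16). The B cell marker MS4A1 had 0 reads in PI, CI and CC. For the average 5 of the 9 (55.6%) had an unadjusted p under 0.05, PTPRC, CD3E, CD3D and CD2 being higher and ITGAM lower, beside 4.42% of all features. The leukocyte score, the mean log2 level of these 9 markers, mixes T cell genes with others such as CD68, CD14 and CSF1R. T cell genes alone were not fitted. With the mixed score as a covariate the averaged difference was 0.65 for TCF7 and −0.51 for LEF1. With the multiciliated marker score, higher in pregnant mares, it was 0.48 for TCF7 and −0.40 for LEF1.

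**Figure D4:**
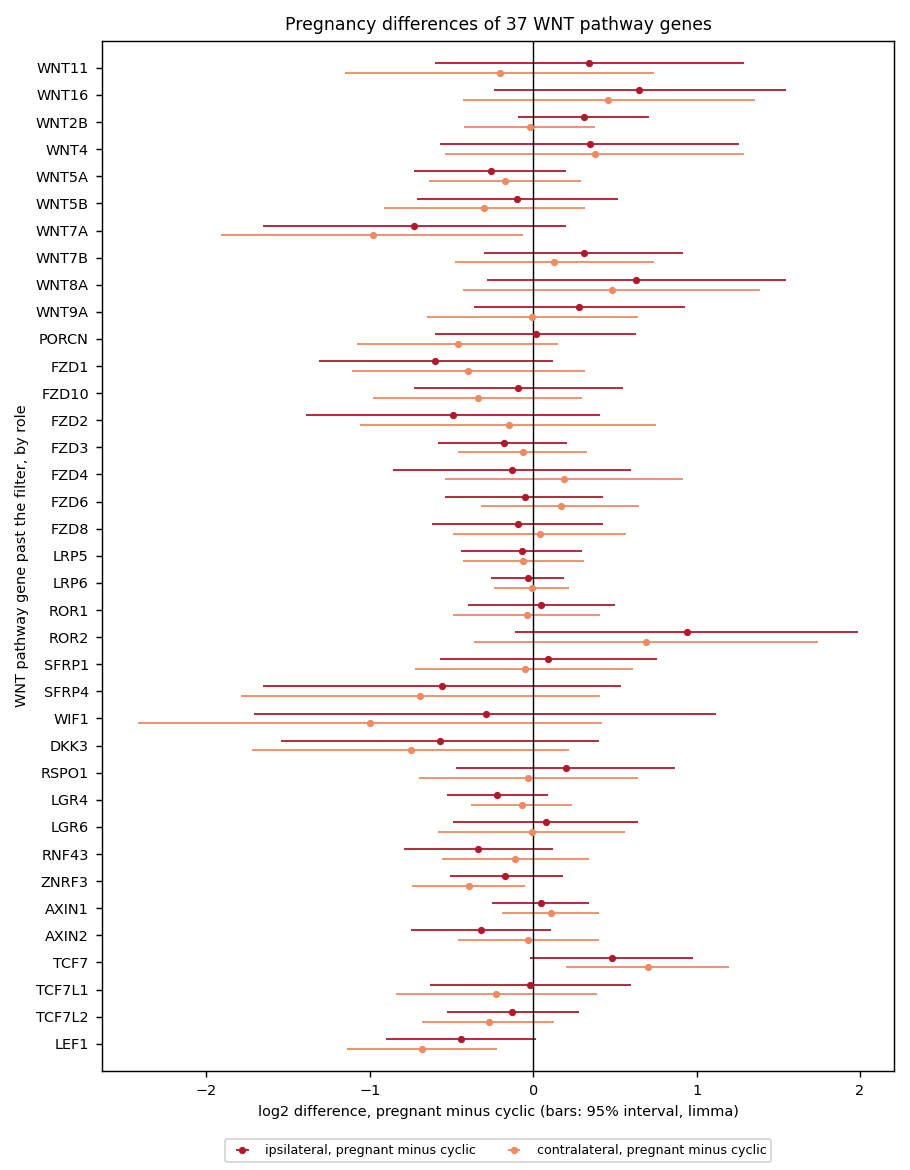
Log2 differences between pregnant and cyclic mares (points) with 95% intervals (bars, limma) for the 37 genes past the filter, ordered by role from ligands (top) to TCF/LEF factors (bottom), ipsilateral and contralateral. The contralateral intervals of WNT7A, ZNRF3, TCF7 and LEF1 lie on 1 side of 0; LRP6 has the narrowest intervals and WIF1 the widest.

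The rest of the pathway was counted from 5 lists of 104 further genes, covering WNT secretion, cytoplasmic signalling, the nuclear complex, planar cell polarity and target genes, of which 88 passed the filter. Limma called 0 of them in any comparison. At an unadjusted p under 0.05 there were 4 ipsilaterally and for the average (CELSR1, CAMK2D, CD44 and MMP7) and 2 contralaterally (APCDD1 and MMP7), or 4.55%, 4.55% and 2.27% of the 88, beside 3.5%, 4.42% and 4.55% of all features. In the cytoplasmic (20 genes measured) and nuclear (15) lists the count was 0 in all 3. CTNNB1, which encodes beta-catenin, averaged 3160 ± 829 in PI and 3820 ± 605 in PC, against 3580 ± 1160 in CI and 3840 ± 858 in CC. WLS, which carries WNT proteins to the cell surface, averaged 652 ± 243 and 760 ± 257 in PI and PC, against 714 ± 240 and 744 ± 129 in CI and CC.

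Among target genes 15 of 17 were on the lower side in pregnant mares ipsilaterally and 14 of 17 contralaterally, with medians of −0.17 and −0.30 on the log2 scale, against −0.01 and 0.01 over all features. The stromal markers lay further in the same direction, at medians of −0.48 and −0.42, and their part in this shift was not tested. The metalloprotease MMP7 averaged 11.6 ± 5.81 in PI and 17.9 ± 11.2 in PC, against 54.4 ± 24.8 in CI and 62.5 ± 33.2 in CC. Its log2 differences were −1.94 ± 0.42 (adjusted p = 0.492, limma) and −1.62 ± 0.42 (adjusted p = 0.899, limma). The contralateral difference of MMP7 passed with library weights (−2.16, adjusted p = 0.0398, limma), and the averaged one, −1.78 ± 0.34, passed with DESeq2 (−1.93, adjusted p = 0.00389). CD44, a hyaluronan receptor, differed by −0.65 ± 0.29 and −0.59 ± 0.29, and APCDD1, a membrane inhibitor of WNT signalling, by −0.28 ± 0.24 and −0.51 ± 0.24. Both depended on the processing. Over 34 alternative fits the averaged difference of CD44 ran from −0.72 to −0.07, its ipsilateral one from −0.77 to −0.28, and the contralateral one of APCDD1 from −0.7 to −0.22. In the polarity list, the atypical cadherin CELSR1 was higher, at 2710 ± 953 in PI and 2570 ± 751 in PC, against 1810 ± 194 in CI and 1830 ± 456 in CC, and the kinase CAMK2D was lower, at 331 ± 24.0 and 338 ± 34.8, against 398 ± 20.8 and 379 ± 21.6. No other polarity gene had an unadjusted p under 0.05, VANGL2 averaging 64.3 ± 11.5 in PI and 65.4 ± 9.71 in PC, against 75.5 ± 12.8 in CI and 66.8 ± 23.9 in CC.

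The second question was how the ipsilateral oviduct compares with its contralateral partner. The ligand WNT2B was lower on the ipsilateral side, though it did not pass the test. It had 54.1, 37.6, 34.2, 39.2 and 47.1 normalized counts in CI1 to CI5, against 83.0, 56.1, 80.6, 50.1 and 50.6 in CC1 to CC5, and 49.2, 53.5, 56.9, 63.7 and 42.5 in PI1 to PI5, against 53.8, 71.6, 70.8, 67.8 and 47.7 in PC1 to PC5. The groups overlapped, but within a status every library was below the contralateral library of its own number, in 10 of 10 pairs. This held for 3 of 14692 features (0.0204%), and 7 (0.0476%) were higher in all 10. The labels do not say that a number marks 1 mare: libraries of the same number varied together in all 5 pregnant pairs, but in 3 of 5 cyclic pairs. The log2 difference of WNT2B was −0.55 ± 0.19 in cyclic mares (adjusted p = 1, limma), where it had the second smallest p of all features, and −0.21 ± 0.19 in pregnant mares (adjusted p = 0.999, limma). The difference between these 2 values, 0.33 ± 0.27, did not pass (adjusted p = 1, limma).

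Endothelial and smooth muscle markers were also lower on the ipsilateral side in cyclic mares, in 5 of 5 genes (median log2 difference −0.40, PECAM1 at an unadjusted p under 0.05) and in 6 of 6 genes (median −0.18), and stromal markers in 5 of 10 (median 0.02). The part of endothelial cells in the WNT2B values was not tested, and with the stromal and smooth muscle score as a covariate the difference of WNT2B was −0.54. Limma called 0 of 37 members and 0 of 14692 features (0%) in cyclic mares, in pregnant mares and for the interaction. At an unadjusted p under 0.05, WNT2B was the single member in cyclic mares, beside 0.286% of all features. There were 0 in pregnant mares, beside 0.762%, and 0 for the interaction, beside 0.32%. These shares are themselves well under the threshold of 0.05. The fit did not pair libraries by number, so its SE for side differences can be too large. With the number as a block, the SE of FZD4 in pregnant mares was 0.15, against 0.35, and WNT2B in cyclic mares was at −0.55 ± 0.17. The median member difference was −0.08 in cyclic and −0.05 in pregnant mares, against 0.01 and −0.03 over all features.

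PORCN had 10.6, 10.7, 5.40, 8.80 and 7.50 normalized counts in CI1 to CI5, against 11.9, 16.5, 8.64, 15.0 and 17.2 in CC1 to CC5, a log2 difference of −0.53 ± 0.30 (adjusted p = 1, limma). It was lower ipsilaterally in all 5 cyclic numbers, as were WNT2B and WIF1, which makes 3 of 37 members, beside 1.01% of all features. For WIF1 some of these differences lay at the floor, with 3.2 in CI4 against 3.34 in CC4, and 0 reads in CI5 against 1 in CC5. Pairing by number was not shown in cyclic mares. With the replicate number as a block, WIF1 also had an unadjusted p under 0.05 in cyclic mares (−0.99 ± 0.34, adjusted p = 1, limma), and over all alternatives 1 to 4 members did. In pregnant mares PORCN had 7.03, 15.6, 11, 3.35 and 9.45 in PI1 to PI5, against 10.8, 11.3, 6.24, 12.9 and 5.54 in PC1 to PC5, with no common direction. PORCN had 2 to 27 reads per library. WNT7B, whose ipsilateral level differed by −0.28 ± 0.29 in pregnant and by −0.46 ± 0.29 in cyclic mares, did not pass either. LEF1 was the member with the smallest p in pregnant mares, at 70.0 ± 9.87 in PI and 52.4 ± 19.2 in PC (0.45 ± 0.22, adjusted p = 0.999, limma).

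**Figure D5:**
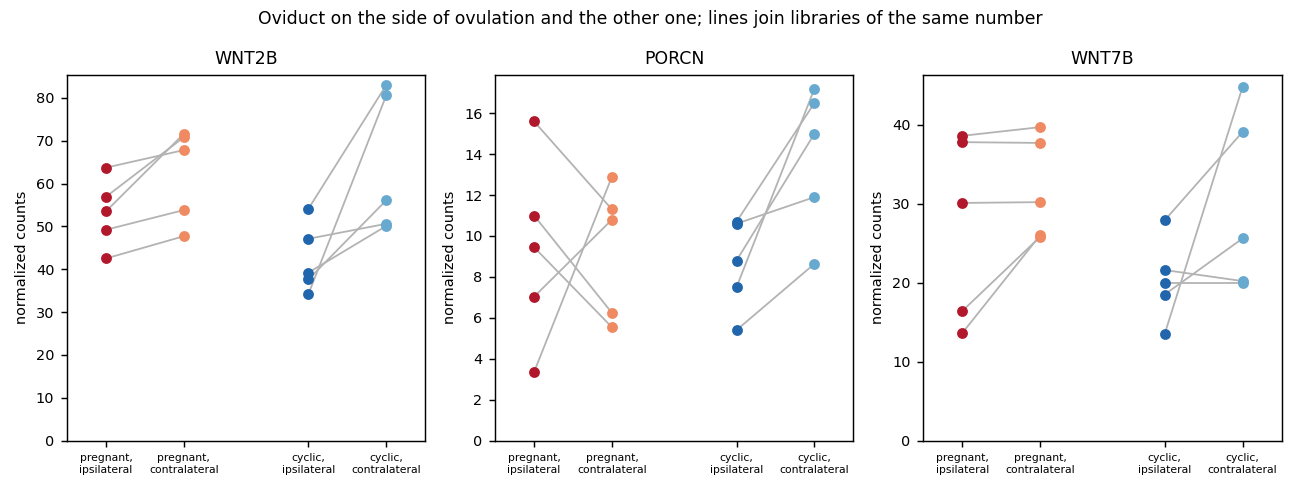
Normalized counts of WNT2B, PORCN and WNT7B in the ipsilateral and contralateral oviduct of pregnant (left pair) and cyclic mares (right pair), with lines joining libraries of the same number. For WNT2B the ipsilateral point is the lower one in all 10 lines, and for PORCN in the 5 cyclic lines, while the pregnant PORCN lines run both ways.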

How the data were processed

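RNA-seq of 20 libraries was used. Per the labels' protocols, libraries were stranded, from total RNA without rRNA, although the molecule is labelled polyA RNA. The submitters' processing notes list CASAVA 1.8. Aligner, counter, strand setting, build and annotation: not given in the sources used here, so overlapping and antisense genes stay uncertain.

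The values, as the authors deposited them, are TMM-normalized counts: a signal per feature, the read count times 1 factor per library. In each column 100% of values were whole multiples of the smallest one within a tolerance of 0.01 reads, so whole reads were recovered. All 20 columns matched 1 sample each. Every pair of libraries differed by more than counting noise (chi-square over its degrees of freedom at least 4.93).

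Log2 of the value plus a pseudocount of 0.5 CPM (3.03 normalized counts), which understates the change of low genes, was tested with limma 3.58.1 in R 4.3.3 (4 group means, trend and robust empirical Bayes, 2-sided, Benjamini-Hochberg over all 14692 features above 1 CPM in at least 5 libraries; threshold 0.05). The averaged comparison used the mean of the libraries of the same status and number, 5 against 5. Alternatives included edgeR 4.0.16 and DESeq2 1.42.0 on the recovered reads. Floors of 3 reads cover counting error only. The labels call the 5 libraries of a group biological replicates.

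The procedure was tried on simulated independent libraries with changes set in PI only, and only the comparison of PI with CI was read. That simulation does not cover paired libraries or any other comparison. Members and lists were chosen with earlier results of these data known. Library values are given for the members with an unadjusted p under 0.05 in a comparison, filled up to 8 by the next smallest p (ROR2, PORCN and FZD1); other members described were chosen after their values were seen. Deviations from the group means correlated at 0.53 to 0.70 between PI and PC libraries of the same number. All 10 matched their own number best, so numbers were taken to pair the pregnant libraries. In cyclic mares the range was −0.0408 to 0.679, with 3 of 5 above 0.1, so pairing was not shown there. Between pregnant and cyclic libraries of the same number it was −0.147 to 0.587 ipsilaterally and −0.396 to 0.488 contralaterally, highest for number 2. A high correlation alone thus does not show a shared mare.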

Additional observations from a re-analysis of the deposited data

Results flagged for a closer look

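Within groups of 5, single libraries lay far from the other 4 for 10 of 148 combinations of member and group examined. The cut-off, a gap above 0.71 of the range, is passed by about 1 in 20 groups of independent, normally distributed values. The rate for counts such as these was not computed, so the 10 cannot be weighed against it. The high ones were WNT16 in PI1 (382 normalized counts, next 191), WNT9A in PI1 (77.3, next 35.2), WNT4 in PI4 (23.5, next 7.03), SFRP1 in PI5 (120, next 77.2), WNT5A in PC3 (122, next 85.8), FZD4 in CI4 (2490, next 1160), WIF1 in CI2 (16.7, next 3.6), RNF43 in CI3 (297, next 170) and WNT7A in CC1 (59.3, next 22.1). The low one was ROR1 in PC3 (163, next 241). PI1, PI4 and CI3, which hold 4 of the 10, had a single feature at 14.4%, 27.8% and 15.4% of their reads and totals of 2795168, 4415169 and 3856941 reads. No member's side difference passed the test of a difference between pregnant and cyclic mares.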

How the results depend on the processing

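Under 34 alternatives (scaling, filters, pseudocount, edgeR, DESeq2, library weights, covariates, the replicate block and each library left out) 0 of 37 WNT members passed in any comparison, and none of the 8 members given by library changed direction in the comparison where its p was smallest or under 0.05. Genes called stayed at 0 in all comparisons when any 1 library was left out. Contralaterally 12 features passed with DESeq2, 6 with library weights, 1 with CPM without TMM and 1 with log2 library total as a covariate; for the averaged comparison 16 passed with DESeq2. The cause was not tested. The replicate block left the count at 0 in every comparison (consensus correlation 0.393) and changed no call. Averaged differences ran from −0.68 to −0.40 for LEF1 and from 0.48 to 0.66 for TCF7, and the cyclic side difference of WNT2B from −0.70 to −0.45. Contralateral ZNRF3 ran from −0.52 to −0.27 and WNT7A from −1.39 to −0.62. Members at an unadjusted p under 0.05 contralaterally numbered 9 with log2 library total, 8 with library weights, 1 with the multiciliated score (TCF7), and 2 without PC5, CC1 or CC3, against 4; for the average the number was 0 with the multiciliated score, against 3. The leukocyte and multiciliated covariates were chosen after seeing the data. Ipsilateral FZD1 was −0.29 with log2 library total, against −0.60. Depth limits WNT4, WNT7A, WNT8A, WNT11, PORCN, FZD2, SFRP4 and WIF1, all with under 3 reads in some library.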
